A study of Homo sapiens with 9 samples.

Results

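The EGF receptor family consists of receptor tyrosine kinases at the cell surface and of the ligands that bind them. Ligands such as amphiregulin (AREG), epiregulin (EREG), epigen (EPGN), TGF-alpha (TGFA) and HB-EGF (HBEGF) are made as membrane-bound precursors, are released by proteases and bind EGFR, some of them ERBB4 as well, whereas neuregulin 1 (NRG1) binds ERBB3 and ERBB4. ERBB2 has no known ligand of its own and ERBB3 has little kinase activity, so that both signal in pairs with other receptors. Active receptors feed the RAS, RAF, MEK and ERK kinases, and ERRFI1 (also called MIG6) is a cytoplasmic protein that binds EGFR and inhibits its kinase, as part of the negative feedback on the receptor.

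The genes described here are the receptors EGFR, ERBB2 and ERBB3, the ligands AREG, EREG, EPGN, TGFA, HBEGF and NRG1, and the inhibitor ERRFI1, chosen as every probe that carries one of these names in the annotation of the arrays. They are 10 of the 36334 gene names on the arrays, with 19 probes. RNA came from 3 stable lines of HEK293, a line of human embryonic kidney origin, into which MEK1 with an HA tag had been introduced: the wild-type kinase (WT cells), the F53S form found in RASopathies (F53S cells) or the K57N form found in cancers (K57N cells). All lines therefore carry introduced MEK1, and RNA was taken at steady state from cells in medium with serum. Each form was represented by 1 stable line, so other differences between the lines cannot be told apart from the mutation, and the 3 replicates of a line measure only the spread between these samples. RNA levels of whole cultures were measured, in which fewer cells that express a gene and less RNA per cell cannot be told apart.

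Signals are given as log2 values relative to the 75th percentile of each array, so that 0 is the signal at this percentile. Levels of the receptors, ligands and ERRFI1 were compared between lines for the same probe and not between probes. A gene is called higher or lower at an adjusted p below 0.05 (limma, over all 25404 probes tested) and a difference of more than 2-fold. Slide 1 held replicate 1 of each line and slide 2 held replicates 2 and 3, and values are listed in the order of the replicates. Of the 8 marker genes of HEK293 cells (VIM, KRT8, KRT18, NEFL, NEFM, NEFH, PAX2 and LIN28B), 7 passed the detection limit (well above background) on 3 of 3 arrays in each line, and NEFM did on 2 of 3. Of the markers of other cell types, those that passed it on 3 of 3 arrays of a line numbered 3 of 4 for blood cells in WT and 2 of 4 in either mutant (CD79A was the brightest), 2 of 3 for endothelium, 1 of 4 for fibroblasts (COL1A1) and 0 of 2 for surface epithelium. COL1A2 and DCN were well above background on 0 arrays.

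Among the ligands, AREG showed the widest gap between K57N cells and the other lines. Its probe with the higher signal (A_23_P259071, chromosome 4 of hg19, 75320518 to 75320577) read −5.77, −4.54 and −5.10 on the WT arrays. In F53S cells it read −5.55, −4.63 and −4.42. In K57N cells it read −0.28, −1.28 and −1.23. The K57N arrays lay far above all WT and F53S arrays, while the WT and F53S arrays overlapped and sat close to the detection limit, with 1 of 3 WT arrays and 2 of 3 F53S arrays well above background. The log2 fold change of K57N against WT cells was 4.21 (standard error 0.43, adjusted p = 0.00219), and that against F53S cells was 3.94 (adjusted p = 0.00541). Both AREG probes entered the test through K57N cells alone, the line in which they were high. Because of the dim arrays these amount, in the processed signals, to at least 11.4-fold against WT cells and to at least 3.34 on the log2 scale against F53S cells, when each dim array is set to the lowest signal that counts as well above background, or to the probe's own value if that is higher. These bounds hold for this background subtraction only: after normexp correction with an added offset the log2 fold changes of AREG were 2.06 against WT cells (adjusted p = 0.0453) and 1.89 against F53S cells (adjusted p = 0.109). A second AREG probe (A_33_P3419190, 75318293 to 75318352) read −5.03, −5.57 and −5.49 in WT cells, all below that limit. It read −5.52, −5.59 and −4.49 in F53S cells, 1 of them well above background, and −1.88, −2.54 and −2.46 in K57N cells. By this probe the K57N level exceeded that of WT cells at least 5.45-fold and that of F53S cells at least 4.98-fold. Both probes thus separated K57N cells from the other lines without overlap. Whether they also match a second AREG copy that has been annotated on hg19 was not determined. The first 30 bases of the 60 in each probe show that they read different stretches of the transcript:
AREG A_23_P259071: tgagtcggtcctctttccagtggatcataa
AREG A_33_P3419190: gagaagctgaggaacgaaagaaacttcgac

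**Figure D1:**
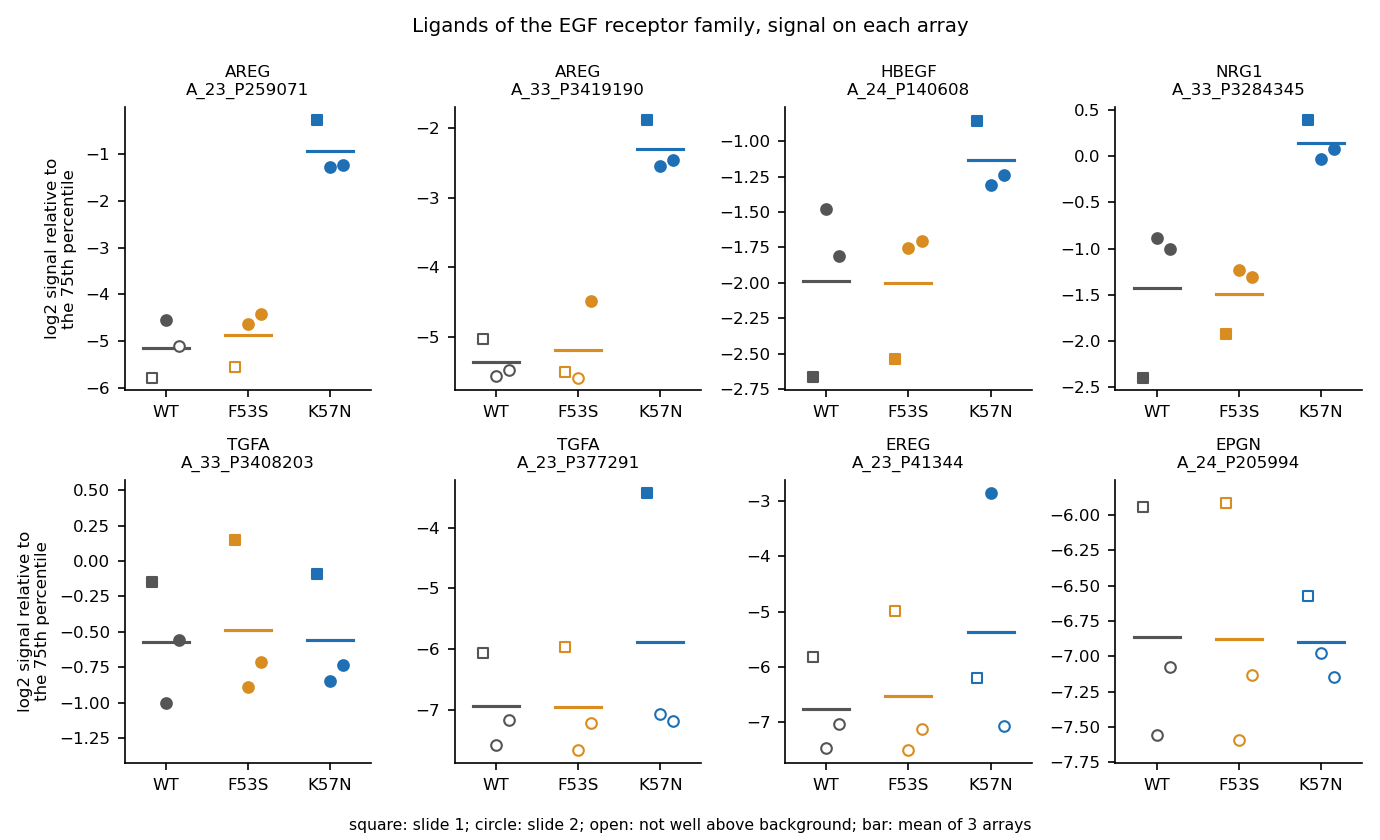
Log2 signal of ligand probes on each of the 9 arrays, relative to the 75th percentile of the array, with squares for slide 1, circles for slide 2, open symbols for spots not well above background and bars for the mean of 3 arrays. Both AREG probes set K57N cells apart, NRG1 and HBEGF were higher in K57N cells on both slides, TGFA overlapped in all lines by its bright probe, and EPGN was below the limit on all 9 arrays.

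NRG1, the neuregulin gene, was measured by 3 probes, each well above background on all 9 arrays. The probe with the highest signal (A_33_P3284345) read −2.39, −0.89 and −1.0 in WT cells. It read −1.92, −1.23 and −1.30 in F53S cells and 0.39, −0.03 and 0.08 in K57N cells. All K57N arrays were above all WT and F53S arrays, but the WT array of slide 1 lay 1.45 below the mean of the WT arrays of slide 2 (a log2 difference of −1.45), and the spread within lines was wide. K57N cells exceeded WT cells by a log2 fold change of 1.57 (95% confidence interval 0.66 to 2.49, adjusted p = 0.0946), which was not called. With slide as a block in the fit the adjusted p was 0.0148, and with replicate number as a block it was 0.0285, so that NRG1 was called higher in both. Against F53S cells the log2 fold change was 1.63 (adjusted p = 0.131, and 0.0186 with the slide block and 0.0362 with the replicate block). On slide 1 alone, K57N exceeded WT cells by 2.78 on the log2 scale, and on slide 2 by 0.97. The other NRG1 probes gave log2 fold changes of 1.50 and 1.56 against WT cells, with adjusted p of 0.0941 and 0.0994, and of 0.0123 and 0.0136 with the slide block, so that the probes of this gene moved alike.

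HBEGF, the precursor of heparin-binding EGF-like growth factor, read −2.67, −1.48 and −1.81 in WT cells (probe A_24_P140608, chromosome 5, 139713052 to 139713111). It read −2.54, −1.75 and −1.71 in F53S cells and −0.86, −1.31 and −1.24 in K57N cells. The K57N arrays again lay above the others, by a narrow margin on slide 2, where the difference from WT cells was 0.37, compared with 1.81 on slide 1. The log2 fold change of 0.85 (95% confidence interval 0.06 to 1.65) was not called (adjusted p = 0.329, and 0.0755 with the slide block). TGFA, by contrast, showed no such order: its bright probe (A_33_P3408203, chromosome 2, 70683472 to 70683531) read −0.15, −1.0 and −0.56 in WT, 0.15, −0.89 and −0.71 in F53S and −0.09, −0.85 and −0.73 in K57N cells. The lines overlapped completely, with the array of slide 1 the highest in each. Between K57N and WT cells the log2 fold change was 0.01 (95% confidence interval −0.78 to 0.81), which leaves room for a change of less than 2-fold in either direction.

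EREG and EPGN did not pass the filter for testing, which required a probe to be well above background on all 3 arrays of a line. EREG, a ligand of EGFR and ERBB4, was well above background on 1 of 9 arrays, K57N replicate 2, with a log2 signal of −2.85, while the other K57N arrays read −6.21 and −7.07. EPGN was well above background on 0 of 9 arrays, so no fold change is given for either gene. A second TGFA probe (A_23_P377291) was likewise well above background on 1 of 9 arrays, K57N replicate 1 (−3.42), with −7.06 and −7.18 on the other K57N arrays. The starts of EPGN, EREG and AREG follow each other in this order on chromosome 4 in RefSeq, and of these 3 neighbors AREG alone passed the filter.

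RefSeq promoter sequences (GRCh38.p14, the 250 bases before an annotated start, on the strand of the gene) were matched for 8 of the 10 genes, with 10 starts, ERBB3 and NRG1 being the others. The windows of AREG and of its neighbor EREG are shown because AREG was called and its neighbor stayed below the filter, AREG at chr4:74444886-74445135 (plus strand) and EREG at chr4:74364895-74365144 (plus strand). Capitals mark matches on either strand to the letters of 5 motifs. The letters searched were TGANTCA for the factor AP-1 and TGACGTCA for the cAMP response element (CRE). They were CCGGAAGT for factors of the ETS family, GGGCGG for the factor Sp1 and TATAAA for the TATA box. Of the 35116 promoters in the table, 6.57% held the AP-1 letters, 1.65% the CRE letters, 3.42% the ETS letters, 42.6% the Sp1 letters and 10.7% the TATA letters within the same window.
AREG: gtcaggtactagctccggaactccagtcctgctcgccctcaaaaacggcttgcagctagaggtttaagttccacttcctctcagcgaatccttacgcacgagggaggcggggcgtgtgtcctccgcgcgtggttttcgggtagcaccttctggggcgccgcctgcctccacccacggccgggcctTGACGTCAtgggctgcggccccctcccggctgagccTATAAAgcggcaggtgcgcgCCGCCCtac
EREG: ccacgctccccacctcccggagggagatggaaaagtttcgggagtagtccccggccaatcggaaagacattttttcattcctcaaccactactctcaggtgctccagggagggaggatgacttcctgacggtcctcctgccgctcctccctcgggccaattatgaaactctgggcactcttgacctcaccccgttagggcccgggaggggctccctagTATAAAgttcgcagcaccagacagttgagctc
In the AREG window the CRE letters began 65 bases before the start, TATAAA 29 bases before it and CCGCCC, the reverse complement of the Sp1 letters, 9 bases before it. The EREG window held TATAAA 32 bases before the start and 0 matches to the other motifs. None of these matches overlapped another, and they describe letters only.

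EGFR, the receptor for AREG, HBEGF and TGFA, was the receptor gene with a called difference. Its probe for the full-length transcript (A_23_P215790, chromosome 7, 55274841 to 55274900) read −1.68, −1.88 and −1.56 in WT cells. It read −1.77, −1.54 and −1.46 in F53S cells and −0.01, −0.55 and −0.63 in K57N cells. K57N cells were higher on all 3 arrays, and WT and F53S cells overlapped. K57N cells had a log2 fold change of 1.31 against WT cells (standard error 0.21, adjusted p = 0.0153) and 1.19 against F53S cells (standard error 0.21, adjusted p = 0.0373), and within slides K57N exceeded WT cells by 1.67 (slide 1) and 1.13 (slide 2). Both values are close to the limit for a call: with 1 array left out, the first was called in 6 of 9 fits (not without WT replicate 2, adjusted p = 0.0786, WT replicate 3, 0.0559, or K57N replicate 2, 0.0557) and the second in 1 of 9 (without WT replicate 1, 0.0498; the highest was 0.146, without F53S replicate 2).

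The other EGFR probes are annotated to shorter transcripts, which encode truncated forms of the receptor that lack its kinase domain. Whether they also read the full-length transcript was not determined, so their values cannot be assigned to the truncated forms alone. Probe A_33_P3351944 (55224558 to 55224617) read −2.69, −3.42 and −3.51 in WT, −2.59, −3.19 and −3.16 in F53S and −1.42, −2.43 and −2.34 in K57N cells. K57N cells were above both other lines without overlap. Its log2 fold change against WT cells was 1.14, with an adjusted p of 0.157 that became 4.53e-04 with the slide block and 0.00187 with the replicate block, where it was called. Probe A_33_P3351955 (55231446 to 55231505) was dim in every line, with 7 of 9 arrays well above background, and overlapped (log2 fold change 0.34, adjusted p = 0.875). The 3 probes lie at different places in the gene, and their first 30 bases are:
EGFR A_23_P215790: tatcaaggaagaaatggttcagaaaatatt
EGFR A_33_P3351944: ggaaatcagtgttttagagagagaactttt
EGFR A_33_P3351955: agaactctgagtgcatacagtgccacccag

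RefSeq gives 2 starts for EGFR, at the end of chr7:55018767-55019016 (start 1) and of chr7:55109589-55109838 (start 2) on the plus strand of GRCh38.p14. The windows before them are shown because the probes do not tell from which start the RNA came, with the same motifs in capitals.
EGFR start 1: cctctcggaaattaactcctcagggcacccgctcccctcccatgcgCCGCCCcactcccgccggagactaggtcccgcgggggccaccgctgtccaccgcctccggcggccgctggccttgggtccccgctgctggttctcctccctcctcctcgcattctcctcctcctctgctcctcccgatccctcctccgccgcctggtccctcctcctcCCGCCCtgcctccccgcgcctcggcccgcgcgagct
EGFR start 2: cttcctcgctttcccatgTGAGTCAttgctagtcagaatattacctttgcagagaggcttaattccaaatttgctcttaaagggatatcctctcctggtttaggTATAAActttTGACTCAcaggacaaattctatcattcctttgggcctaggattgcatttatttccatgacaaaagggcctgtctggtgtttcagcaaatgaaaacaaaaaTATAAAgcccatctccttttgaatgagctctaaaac
The window of start 1 held the Sp1 letters at 2 places, as CCGCCC, and 0 matches to the AP-1 or TATA letters. The window of start 2 held the AP-1 letters at 2 places, TGAGTCA 232 and TGACTCA 136 bases before the start, and TATAAA at 146 and 36 bases before it.

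ERBB2, the partner receptor without a ligand, was not called. Its bright probe (A_23_P89249, chromosome 17, 37884829 to 37884888) read 2.39, 1.36 and 1.28 in WT, 2.29, 1.37 and 1.29 in F53S and 1.56, 1.03 and 1.12 in K57N cells. K57N cells were the lowest on each slide, but the arrays of slide 1 were higher than those of slide 2 in every line, so that the groups overlapped. This probe was spotted 10 times on each array, and the standard deviation between its spots on an array was between 0.02 and 0.09 on the log2 scale. For K57N against WT cells the log2 fold change was −0.44 (95% confidence interval −1.29 to 0.42, adjusted p = 0.79, and 0.0591 with the slide block), with −0.83 on slide 1 and −0.24 on slide 2. The other ERBB2 probe (A_33_P3292596) gave −0.17 (adjusted p = 0.929).

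ERBB3, the kinase-impaired receptor for neuregulins, gave different values by probe. The probe with the highest signal (A_33_P3211569, chromosome 12, 56479217 to 56479276), designed on a short transcript, read −2.39, −2.93 and −2.80 in WT, −2.23, −2.89 and −2.74 in F53S and −3.48, −2.86 and −3.11 in K57N cells. WT and K57N cells overlapped on slide 2, and the log2 fold change of −0.44 was not called (adjusted p = 0.562). A probe for the full-length transcript (A_23_P349416, 56496160 to 56496219) read −2.57, −2.93 and −3.51 in WT, −3.89, −3.82 and −3.46 in F53S and −3.87, −4.03 and −4.41 in K57N cells. By this probe all K57N arrays were below all WT arrays, and the F53S arrays, 2 of 3 well above background, overlapped both. K57N differed from WT cells by a log2 fold change of −1.10 (adjusted p = 0.0873), and the gene was called lower by it only with a block (adjusted p = 0.0185 with slide and 0.0298 with replicate number). Another probe annotated to the same full-length transcript (A_33_P3280471) was well above background on 0 of 9 arrays.

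**Figure D2:**
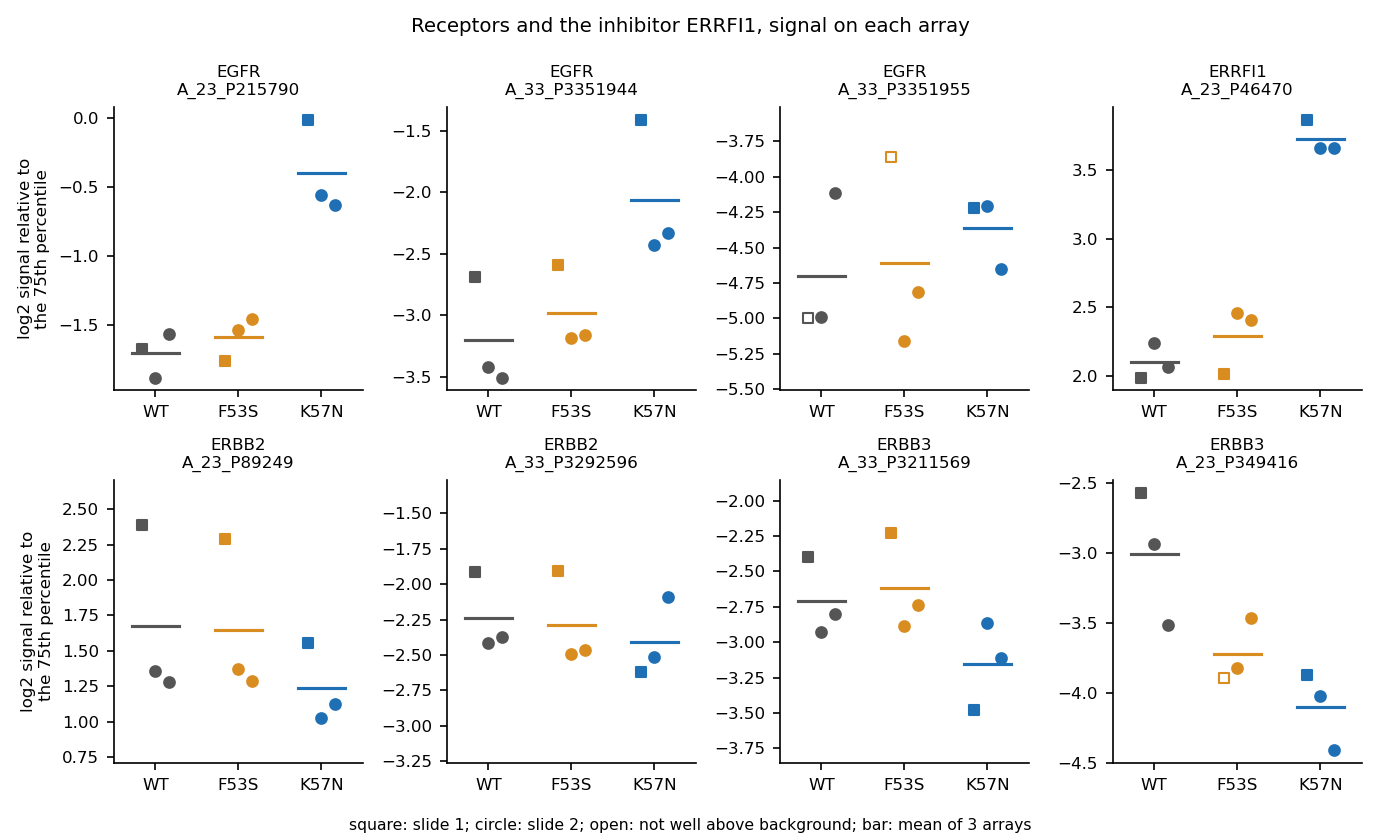
Log2 signal of the receptor probes and of ERRFI1 on each array, with symbols for slides and background as in the plot of the ligands. EGFR (A_23_P215790 and A_33_P3351944) and ERRFI1 were higher in K57N cells on every array, and the arrays of slide 1 were the highest of each line for ERBB2 by probe A_23_P89249.

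ERRFI1, the inhibitor of EGFR, was bright on all arrays (A_23_P46470, chromosome 1, 8072208 to 8072267). It read 1.99, 2.24 and 2.07 in WT cells, 2.02, 2.46 and 2.41 in F53S cells and 3.86, 3.66 and 3.66 in K57N cells. The K57N arrays were tightly grouped and well above the rest, and the F53S arrays overlapped those of WT cells. The log2 fold change was 1.63 against WT cells, or 3.1-fold (95% confidence interval 1.23 to 2.03 on the log2 scale, adjusted p = 0.00262), and 1.44 against F53S cells (adjusted p = 0.00882). It was called against WT cells in all 9 fits that left out an array, and on slides 1 and 2 the difference was 1.88 and 1.51. The inhibitor was thus called higher in the same line as its target EGFR and the ligand AREG. Its promoter window (chr1:8026310-8026559, minus strand, GRCh38.p14) held the Sp1 letters 70 bases before the start and 0 matches to the other motifs.
ERRFI1: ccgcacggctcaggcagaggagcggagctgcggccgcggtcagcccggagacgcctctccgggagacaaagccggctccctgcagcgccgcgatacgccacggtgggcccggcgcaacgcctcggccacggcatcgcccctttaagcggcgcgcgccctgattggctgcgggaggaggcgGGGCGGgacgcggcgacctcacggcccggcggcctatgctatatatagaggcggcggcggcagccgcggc

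Counted over genes, taking for each gene the tested probe of highest mean signal, 8 of the 10 genes were tested among 19112. In K57N against WT cells, 3 were called higher (AREG, EGFR and ERRFI1), compared with 1.53% of all genes tested, and 0 lower, compared with 0.738%. Over the 7 tested genes other than AREG the log2 fold changes had a median of 0.85 (1.08 with AREG at its measured value), and over all genes tested −0.06. With slide as a block, 4 were called higher, NRG1 being added (2.57% of all genes), and 0 lower (1.96%). With replicate number as a block the counts were also 4 (2.53%) and 0 (1.86%). Past 2-fold and an unadjusted p below 0.05, limma gave 4 genes, all higher, with NRG1 added (4.55% of all genes). The methods' t-test gave 4 genes without adjustment (3.9% of all genes) and 1 with it, ERRFI1 (0.56%). A t-test is named in the general statistics of the paper, whose main text names no test for the arrays. The 8 tested genes were chosen with results of these arrays known, and AREG passed the filter through K57N cells alone.

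The direct comparison of the mutants gave a similar count. In K57N against F53S cells, 3 genes were called higher (0.963% of all genes) and 0 lower (0.246%), again AREG, EGFR and ERRFI1. With the slide block these numbers were 4 (1.89%) and 0 (1.1%), and with the replicate block 4 (1.83%) and 0 (1.05%), NRG1 being the gene added. The methods' t-test with the 2-fold limit gave 4 genes without adjustment (2.6% of all genes) and 0 with it (0.136%). Normexp background correction left 1 gene (ERRFI1) and testing all probes without a filter left 1 (AREG). EGFR was also not called with only the 2 lines in the fit (adjusted p = 0.119), for the mean of its probes (log2 fold change 0.79, adjusted p = 0.221) or on slide 2 alone (0.91, under 2-fold). The shares of all genes depend on single arrays as well: with 1 array left out, between 66 and 195 genes were called higher (184 with all arrays) and between 6 and 48 lower (47). In K57N against WT cells these were between 157 and 342 (292) and between 47 and 184 (141). The comparisons of K57N cells with F53S and with WT cells share the K57N arrays.

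No gene of the family was called between F53S and WT cells. In F53S against WT cells, 0 of the 8 genes were called higher or lower by limma (0% of all genes in either direction, also with the slide block, 0% and 0%, and with the replicate block, 0% and 0%). Past 2-fold and an unadjusted p below 0.05 there were 0 of the 8 by limma (0.225% of all genes) and 0 by the methods' t-test (0.126%). AREG was well above background on too few arrays of these lines for a fold change between them to be read. Among the other ligands the log2 fold changes were −0.01 for HBEGF, −0.06 for NRG1 and 0.08 for TGFA. For the receptors they were 0.12 for EGFR (−0.35 to 0.60), −0.02 for ERBB2 and 0.09 for ERBB3, and for ERRFI1 0.20 (−0.21 to 0.60). The ERBB3 probe A_23_P349416, which does not stand for the gene in the count, gave −0.72 (95% confidence interval −1.34 to −0.10, unadjusted p = 0.0278 in limma, not called). By the probe that stands for each gene, the 95% confidence intervals of all tested genes but AREG do not reach a 2-fold difference. Those of some other probes do, as for ERBB3 above, EGFR (A_33_P3351944, −0.56 to 1.01) and NRG1 (A_33_P3392192, −1.12 to 0.71). Both mutants were compared with the same WT arrays.

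**Figure D3:**
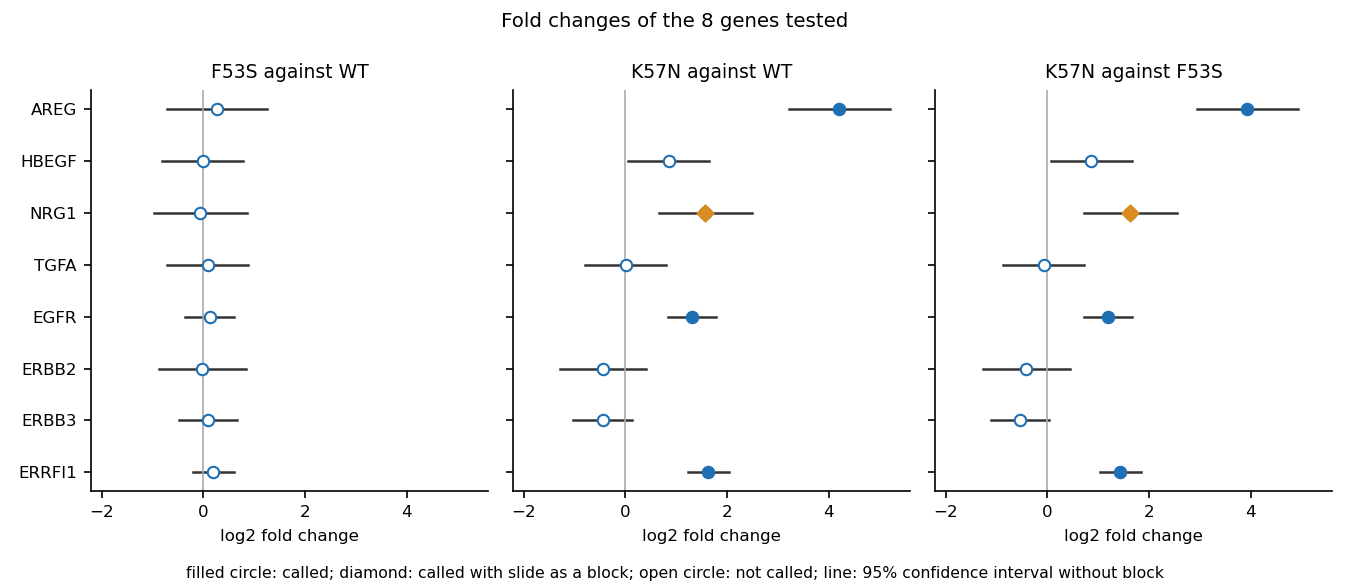
Log2 fold changes of the 8 genes tested in the 3 comparisons, with 95% confidence intervals from the fit without a block, filled circles for called genes, diamonds for genes called only with slide as a block and open circles for the rest. AREG (at least 3.51 in the processed signals, but 2.06 after normexp correction), ERRFI1 (1.63) and EGFR (1.31) were called in K57N against WT cells. In F53S against WT cells 0 genes were called. Each AREG point is the measured value, which includes arrays of WT or F53S cells below the limit.

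The members differed between slides within each line, as did the arrays as a whole. Within lines, the standard deviation of the log2 differences between arrays ran from 0.61 to 0.91 for replicate 1 against replicate 2 or 3. For replicate 2 against 3 it ran from 0.31 to 0.33. Over the 15 tested probes in the 3 lines, the median absolute difference between the array of slide 1 and the mean of the arrays of slide 2 was 0.59 on the log2 scale, and that between the arrays of slide 2 was 0.11. In WT cells HBEGF and NRG1 were lower on slide 1, by log2 differences of −1.02 and −1.45, whereas ERBB2 was higher by 1.07. In K57N cells the same differences were 0.42, 0.37 and 0.48. The K57N excess over WT cells was therefore larger on slide 1 for NRG1 and HBEGF, and positive on slide 2 for each. For AREG (A_23_P259071) it was at least 3.58 on slide 1 and at least 3.48 on slide 2 on the log2 scale. These bounds set dim WT arrays to the limit as above and hold for this background subtraction only. Slide 1 had a lower 75th percentile of processed signal (285 for WT, 245 for F53S and 376 for K57N) than slide 2 (695 to 821), and its part in these differences was not tested.

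**Figure D4:**
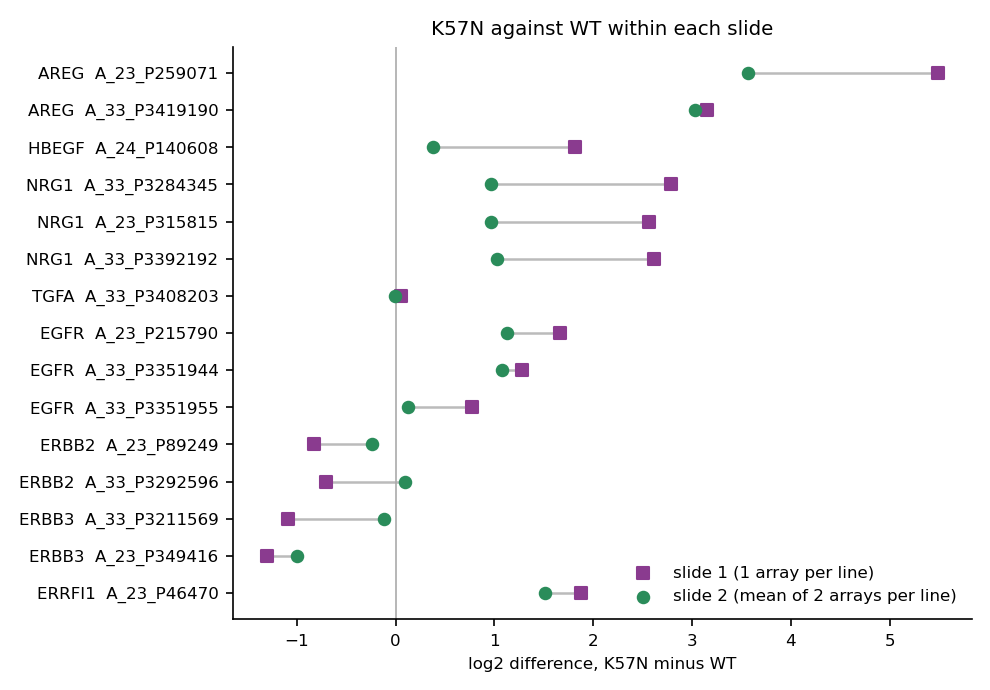
Log2 difference between K57N and WT cells for each tested probe of the family, on slide 1 (squares, 1 array per line) and on slide 2 (circles, mean of 2 arrays per line). The differences of AREG, NRG1, HBEGF, EGFR and ERRFI1 were positive on both slides, and that of NRG1 was 2.78 on slide 1 and 0.97 on slide 2, while the points of AREG include WT arrays below the limit.

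Other genes of the family and its pathway were read from lists of 47 genes, of which 42 were tested. Of the 6 remaining ligands and receptors, 3 were tested (NRG2, NRG4 and ERBB4), and 1 was called higher in K57N against WT cells (1.53% of all genes were). This was NRG2, a neuregulin, with a log2 signal of −4.18 ± 0.40 (SD over 3 arrays, 2 of them well above background) in WT cells, −3.83 ± 0.46 in F53S cells and −2.49 ± 0.26 in K57N cells (log2 fold change 1.69, adjusted p = 0.024). A second NRG2 probe (A_33_P3395513) did not show it (−0.34, adjusted p = 0.959). The call of NRG2 was also lost with normexp, without a filter, with the mean of its probes, by the adjusted t-test and in 5 of 9 fits that left out an array. ERBB4, the neuregulin receptor with an active kinase, read −2.32, −1.06 and −1.0 in WT, −3.04, −1.72 and −1.58 in F53S and −3.73, −2.69 and −3.28 in K57N cells. K57N cells were below WT cells on all arrays, and the log2 fold change, −1.78 (adjusted p = 0.133), was called lower with the slide block (adjusted p = 9.46e-04) and the replicate block (0.00269). With a block ERBB4 was also called lower in K57N than in F53S cells (log2 fold change −1.12, adjusted p = 0.0102 with slide and 0.0206 with replicate number), and NRG2 higher (1.34, 0.00177 and 0.0029). With the slide block, 2.57% of all genes were called higher and 1.96% lower in K57N against WT cells. In K57N against F53S cells these shares were 1.89% and 1.1%. EGF was well above background on 2 of 3 arrays of each line and BTC and NRG3 on 0 arrays, so they were not tested.

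Lists for the release of ligands, for receptor adaptors and for receptor turnover were counted in the same way. Of the 6 genes for ligand release (ADAM9, ADAM10, ADAM12, ADAM17, RHBDF1 and RHBDF2), 0 of 6 tested were called in K57N against WT cells (median log2 fold change 0.12, with 1 at an unadjusted p below 0.05 in limma and 0 of these past 2-fold, compared with 13.2% and 4.55% of all genes). Of the 14 adaptors and enzymes that bind active receptors, 0 of 13 tested were called (median −0.01, with 1 at an unadjusted p below 0.05 and 0 past 2-fold, against the same shares of all genes). Of the 13 genes for receptor turnover and restraint, 0 of 12 tested were called (median 0.23, with 1 at an unadjusted p below 0.05 and past 2-fold). Of all genes, 2.27% were called in this comparison. The methods' t-test with the 2-fold limit gave 0 genes of these 3 lists, with adjustment (0.56% of all genes) or without it (3.9%). The turnover gene past both limits in limma was UBASH3B, a phosphatase-like protein that binds the ubiquitin ligase CBL, whose log2 fold change of 1.64 (adjusted p = 0.268) was called with the slide block (0.0181) and the replicate block (0.0332). UBASH3B passed the filter through K57N cells alone, with 2 of 3 arrays well above background in either other line, and with the dim WT array at the limit the difference was at least 0.96, which is under 2-fold. These 3 lists had 0 genes called in F53S against WT cells (0% of all genes) and in K57N against F53S cells (1.21%). Past 2-fold at an unadjusted p below 0.05 they had 0 in either comparison, by limma or by the methods' t-test. By limma, 0.225% of all genes passed these limits in F53S against WT cells and 3.21% in K57N against F53S cells. The t-test gave 0.126% and 2.6%.

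The last list held 8 genes commonly used as readouts of ERK output. In K57N against WT cells 8 of 8 were called higher (1.53% of all genes were). They are the ERK phosphatase DUSP6 (6.32, adjusted p = 2.78e-04), the feedback inhibitors SPRY2 (2.26, 5.38e-04) and SPRY4 (4.46, 5.28e-04), the transcription factors ETV4 (5.02, 6.15e-04), ETV5 (3.87, 0.0221), EGR1 (5.29, 2.83e-04) and FOSL1 (2.83, 6.35e-04), and PHLDA1 (3.08, 8.57e-04). SPRY4, ETV4, ETV5 and PHLDA1 were well above background on 2 of 3 WT arrays, and with the dim array set to the limit their log2 fold changes were at least 4.11, 4.67, 3.14 and 3.01. The median over the 8 readouts was then 3.63. The call of ETV5 was lost with quantile normalization, without a filter, with only the 2 lines in the fit and without any 1 of the K57N arrays, and ETV5 and SPRY4 were not called by the adjusted t-test, which left 6 of 8. In F53S against WT cells 0 of 8 were called by limma, and the log2 fold changes were positive for 8 of 8, with a median of 1.77 when dim WT arrays were set to the limit. Past 2-fold at an unadjusted p below 0.05 there were 7 by limma (0.225% of all genes) and 7 by the methods' t-test (0.126%). Over the 7 tested genes of the receptors, ligands and ERRFI1 other than AREG the median was 0.08, and no test compared these lists. In EGR1, for example, the arrays read −1.09, −0.68 and −1.09 in WT, 0.67, 0.44 and 0.41 in F53S and 5.23, 3.89 and 3.89 in K57N cells, so that the lines did not overlap. In K57N against F53S cells 5 of 8 readouts were called higher (0.963% of all genes were), namely DUSP6, EGR1, FOSL1, PHLDA1 and SPRY2, and 6 with either block, SPRY4 being added (adjusted p = 0.0611, and 0.0078 with the slide block and 0.0145 with the replicate block). Only DUSP6 and EGR1 were called without a filter, or without F53S replicate 2, F53S replicate 3 or K57N replicate 2. By the adjusted t-test only DUSP6 was called. Over all 47 list genes the calls in this comparison went from 5 to 8 with either block, while over all genes tested those called higher went from 184 to 362 (slide block) or 349 (replicate block) and those called lower from 47 to 211 or 200.

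MAP2K1, the gene of MEK1 itself, read 2.36, 2.34 and 2.42 in WT, 2.50, 2.39 and 2.46 in F53S and 2.92, 2.81 and 2.82 in K57N cells (A_23_P20248, chromosome 15 of hg19, 66783224 to 66783283). K57N cells were higher on all arrays, by 0.48 on the log2 scale (adjusted p = 0.135, and 0.00758 with the slide block), which is less than 2-fold. The sources used here do not say whether the introduced MEK1 carries the sequence of this probe, which may lie outside the coding region, so the probe does not check the labels.

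For the genes called with or without the slide block and well above background on all 9 arrays, the genes with the most similar profile were found from the root mean square difference over the 9 arrays, after the mean of each slide was subtracted, among 16948 others. For EGFR these were F3, the gene of tissue factor (0.10), FER, a cytoplasmic tyrosine kinase (0.11), and the transcript XLOC_011157 (0.11), where the median over all genes was 0.68. For NRG1 they were the phosphatase gene DUSP1 (0.15), the receptor gene TNFRSF12A (0.21) and TRIB3 (0.23), with a median of 0.89. For ERRFI1 they were MYOF (0.05), the phosphate transporter gene SLC20A1 (0.09) and NDRG1 (0.09), with a median of 0.79. Their log2 fold changes in K57N against WT cells, between 1.15 and 1.64, follow from this choice and were not tested further.

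The marker lists were also summed on each array. The summed log2 signal of the HEK293 markers ran from 7.96 to 8.25 in WT cells, from 8.01 to 8.59 in F53S cells and from 8.39 to 8.64 in K57N cells, with KRT18 the brightest. That of the fibroblast markers ran from −0.37 to 0.43 in WT cells, from −0.41 to 0.15 in F53S cells and from −1.18 to −1.01 in K57N cells, with COL1A1 the brightest. Both lists set K57N cells apart from WT cells, as AREG, EGFR and ERRFI1 did, and their part in those results was not tested. The sums for blood cells, endothelium and surface epithelium overlapped between K57N and WT cells. Compared within replicate numbers, the sum for blood cells was lower in K57N than in WT cells each time. It was 2.39 and 2.68 for replicate 1, 1.31 and 1.37 for replicate 2, and 1.40 and 1.60 for replicate 3. The sums for endothelium and surface epithelium went both ways. The part of the blood-cell markers in the other results was not tested.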

How the data were processed

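The authors hybridized Cy3-labeled RNA of 9 samples, 3 per line, to Agilent arrays and deposited, per array, processed signals from Feature Extraction 10.10.1.1, an intensity after background subtraction, unscaled between arrays. They also deposited log2 values, which for probes with 1 spot equal the log2 of that intensity less a constant per array (100% within 0.02); how the constant was set is not given in the sources used here, and the column medians lie between −3.85 and −3.41. Here, the log2 of the intensity less the 75th percentile of each array was used. Control spots and spots that Feature Extraction marked uneven or outlying were dropped (278 to 501 per array, 0 of this family), and spots of a probe were averaged. Probes well above background on all 3 arrays of a line were tested in limma 3.58.1 (R 4.3.3) with 1 mean per line, with p adjusted by the Benjamini-Hochberg method over all probes. The procedure was tested on simulated data. The number of arrays limits the precision.

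Replicate numbers come from the labels. Deviations from the line means of arrays with the same number correlated with r between 0.34 and 0.87 over 9 pairs. Slide 1 held replicate 1 alone, and the difference between slides enters the deviations of every replicate number. Arrays with unlike numbers were not correlated, so pairing by number and the slide cannot be told apart. Gene names are those of the annotation on hg19, and 17 of the 19 probes matched RefSeq by accession, all 17 with the same symbol. Promoters are from RefSeq (GRCh38.p14).

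Named genes are the 10 genes with all their probes, MAP2K1, the other ligands and receptors, list genes called in a comparison, the ligand-release and marker lists, and the 3 most similar genes to those called. The members and lists were chosen with earlier results of these data known. Figures were drawn with Python 3.11.15, pandas 2.3.3 and matplotlib 3.10.9.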

Additional observations from a re-analysis of the deposited data

Results flagged for a closer look

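Signals outside the tests appeared in K57N cells on single arrays. EREG was well above background on the array of K57N replicate 2, at a log2 signal of −2.85, and on 0 of 3 WT arrays, where it read between −7.46 and −5.82. The second TGFA probe (A_23_P377291) was well above background on the array of K57N replicate 1, at −3.42, and on 0 of 3 WT arrays, where it read between −7.58 and −6.06. Neither was seen on the other K57N arrays, so these are values of 1 array each.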

How the results depend on the processing

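The call of ERRFI1 in K57N against WT cells held under all 12 alternatives that kept it (log2 fold change 1.51 to 1.68, highest adjusted p = 0.0376) and with each array left out. AREG was called in 10 of 11, the exception being the methods' t-test with adjustment (adjusted p = 0.0701), and it could not be tested among probes well above background on all 9 arrays. Its log2 fold change lay between 2.06 (normexp) and 4.32. EGFR was called in 8 of 12: its log2 fold change was 0.95 with normexp (adjusted p = 0.112) and 0.93 for the mean of its probes (0.0883), and its adjusted p was 0.105 without a filter and 0.119 by the methods' t-test. In K57N against F53S cells EGFR was called in 6 of 12, AREG in 9 of 11 and ERRFI1 in 10 of 12 (not without a filter, adjusted p = 0.0881, or by the adjusted t-test, 0.0941). In K57N against WT cells NRG1 was called in 4 of 12, with normexp (adjusted p = 0.044), the slide block, the replicate block and the unadjusted t-test. On slide 2 alone its adjusted p in that comparison was 0.0034, with a log2 fold change of 0.97, less than 2-fold. In K57N against F53S cells NRG1 was also called in 4 of 12, with either block, the unadjusted t-test and slide 2 alone. There its log2 fold change on slide 2 alone was 1.29 (adjusted p = 0.00281), and normexp did not call it (adjusted p = 0.057). With the replicate block the counts of the family were 4, 0 and 4 for K57N against WT, F53S against WT and K57N against F53S cells, and apart from the NRG1 probes, the second EGFR probe, the second ERBB3 probe and the list genes named above, the block changed no other call.

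The count in K57N against WT cells, 3, was 1 with the methods' t-test after adjustment and between 2 and 3 with 1 array left out. The count in K57N against F53S cells, 3, was 1 with normexp, 1 without a filter, 0 with the methods' t-test after adjustment and between 2 and 4 with 1 array left out. In F53S against WT cells it was 0 throughout. For the 47 list genes the alternatives were applied after the data had been seen. Their count in K57N against WT cells, 9, was 4 among probes well above background on all 9 arrays, where fewer genes were tested, and between 7 and 9 with 1 array left out. This count was 6 and 10 with the adjusted and unadjusted t-test, and 11 with the slide block, with the replicate block and on slide 2 alone. In F53S against WT cells, 0, it was 1 with normexp (DUSP6), 1 on slide 2 alone (ETV4), 7 with the unadjusted t-test and between 0 and 2 with 1 array left out (2 without WT replicate 1, DUSP6 and SPRY4). In K57N against F53S cells, 5, it was 2 without a filter, 8 with the replicate block, 8 with the slide block, 10 on slide 2 alone, 1 and 9 with the adjusted and unadjusted t-test, and between 2 and 6 with 1 array left out (2 without F53S replicate 2, F53S replicate 3 or K57N replicate 2, and 3 without K57N replicate 3). The cause was not tested.

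Small differences that were not called changed sign. In F53S against WT cells ERBB2 was 0.012 and TGFA −0.023 on slide 2 alone, ERBB3 was −0.32 for the mean of its probes, and HBEGF was 0.0039 with normexp. On slide 2 alone TGFA was −0.010 in K57N against WT and 0.013 in K57N against F53S cells. With 1 array left out, the ranges in F53S against WT cells were −0.043 to 0.62 for AREG (mostly below the limit in these lines), −0.34 to 0.33 for ERBB2, −0.11 to 0.25 for ERBB3, −0.35 to 0.26 for HBEGF, −0.54 to 0.21 for NRG1 and −0.23 to 0.29 for TGFA, and those of TGFA were −0.22 to 0.22 in K57N against WT and −0.30 to 0.25 in K57N against F53S cells. A line left with 2 arrays is assumed to vary like the others.

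Signal over background limits AREG in WT and F53S cells to bounds and leaves EREG and EPGN without a comparison.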
